A study of Homo sapiens with 12 samples.

Results

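The genes described here decide where pyruvate goes and how lactate leaves the cell: the pyruvate dehydrogenase kinases PDK1, PDK2 and PDK3, the pyruvate dehydrogenase phosphatase subunit PDP1, the lactate dehydrogenase subunit LDHB, the mitochondrial pyruvate carrier subunits MPC1 and MPC2, the monocarboxylate transporters SLC16A1 (MCT1) and SLC16A3 (MCT4), and BSG (basigin), the glycoprotein that brings these transporters to the cell surface. They were taken by symbol from the table of counts. These are 10 of the 28278 genes in the table, and all 10 were among the 15916 genes that passed the filter on low counts.

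RNA-sequencing was performed on human embryonic stem cells (hESCs) of the established line WA26, as wild type (WT) or with UBQLN1 knocked out (UBQLN1 KO) by CRISPR-Cas9. UBQLN1 is a shuttle protein that carries ubiquitinated proteins to the proteasome. There were 4 groups of 2 libraries: WT at 20% O2, KO at 20% O2, KO at 5% O2, and KO cultured with NAC (N-acetyl-L-cysteine), a thiol antioxidant. All were grown without feeder cells, and neither genotype at 20% O2 received a treatment according to the labels. The study's text describes more than a single clone per genotype and DMSO as the vehicle of NAC, but the labels tie no library to a clone and name no vehicle. The study's text calls the replicates of the oxygen comparison biological, but neither it nor the labels tie a library to a culture, so p-values measure the spread between these libraries. WT cells at 5% O2 or with NAC were not analysed here, so the response to either treatment is described in KO cells only.

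Pyruvate made by glycolysis enters mitochondria through a carrier built from MPC1 and MPC2 and is converted to acetyl-CoA by the pyruvate dehydrogenase complex. The kinases PDK1 to PDK4 phosphorylate the complex and switch it off, and the phosphatases PDP1 and PDP2 switch it on again. Pyruvate that stays in the cytosol is interconverted with lactate by tetramers of LDHA and LDHB, and lactate crosses the cell membrane with a proton through MCT1, which works in both directions, or MCT4, which is adapted to export. Pluripotent stem cells are known for high glycolytic flux, and PDK1, LDHA and SLC16A3 are textbook targets of the hypoxia-inducible factors, which are stabilised when oxygen is low.

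At 5% O2, PDK1 and SLC16A3 rose in KO cells by about the same factor, 8.20-fold and 8.39-fold, while PDK3 and LDHB rose by 1.34-fold and 1.28-fold and the other 6 genes did not pass the test. The calls of PDK3 and LDHB at 5% O2 were each lost when any of the 4 libraries was left out. Calls over all tested genes also fell in those fits, which leave 1 library in a group. Of all tested genes, 3.68% were called higher and 4.13% lower in this comparison. With NAC the pattern was different: PDK1, MPC1, MPC2, LDHB and SLC16A1 rose by 1.35-fold to 2.28-fold, PDK3 fell, and SLC16A3 was split between the NAC libraries. The 2.28-fold was that of PDK1, whose NAC replicates were uneven, at 3.09-fold and 1.46-fold over the mean of untreated KO. In the NAC comparison 23.8% of all tested genes were called higher and 20.8% lower. The calls of MPC1, MPC2, LDHB and PDK3 were lost there when a smooth trend with transcript length and GC content was taken out. Between genotypes at 20% O2, 0 members passed the test of edgeR, where 1.34% of all tested genes were higher and 0.622% lower.

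The hypoxia-inducible factors bind DNA at sites with the core ACGTG or GCGTG, so the 250 bases before the start of the MANE Select transcript (the reference transcript agreed by RefSeq and Ensembl) were read from the hg38 genome and searched for these letters on both strands. PDK1 and SLC16A3 are shown because they changed most at low oxygen, PDK3 because it changed modestly, and BSG because it holds the most matches among the members searched and did not pass the test at low oxygen. The sequences are written 5′ to 3′ on the gene's strand with every match in capitals.
PDK1, chr2:172555840-172556089, plus strand: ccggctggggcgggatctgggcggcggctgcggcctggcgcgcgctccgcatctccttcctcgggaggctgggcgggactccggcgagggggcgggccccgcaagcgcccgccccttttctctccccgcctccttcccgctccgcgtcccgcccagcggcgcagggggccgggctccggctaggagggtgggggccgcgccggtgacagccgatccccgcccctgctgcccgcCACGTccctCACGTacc
SLC16A3, chr17:82228792-82229041, plus strand: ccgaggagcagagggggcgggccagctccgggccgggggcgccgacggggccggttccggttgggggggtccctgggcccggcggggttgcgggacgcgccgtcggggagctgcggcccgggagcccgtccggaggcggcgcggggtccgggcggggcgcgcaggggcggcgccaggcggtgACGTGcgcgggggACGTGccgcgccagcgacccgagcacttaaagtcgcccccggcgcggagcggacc
PDK3, chrX:24465036-24465285, plus strand: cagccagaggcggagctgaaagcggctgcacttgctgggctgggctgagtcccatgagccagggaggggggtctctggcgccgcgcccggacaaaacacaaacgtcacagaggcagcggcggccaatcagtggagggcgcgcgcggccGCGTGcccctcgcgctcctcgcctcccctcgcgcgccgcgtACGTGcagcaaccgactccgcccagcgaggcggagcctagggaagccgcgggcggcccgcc
BSG, chr19:572346-572595, plus strand: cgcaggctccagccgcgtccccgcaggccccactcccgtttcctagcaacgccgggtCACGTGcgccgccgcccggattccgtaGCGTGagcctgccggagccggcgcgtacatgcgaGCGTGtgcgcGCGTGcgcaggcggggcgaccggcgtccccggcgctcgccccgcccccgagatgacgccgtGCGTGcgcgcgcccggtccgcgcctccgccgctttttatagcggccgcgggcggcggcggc

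PDK1 and SLC16A3 each held 2 copies of ACGTG, close to each other and close to the start: their first bases lie 17 and 8 bases before the start in PDK1, on the minus strand of the gene, and 68 and 55 bases before it in SLC16A3, on the plus strand. PDK3 held 1 GCGTG and 1 ACGTG. BSG held 6 matches, of which the palindrome CACGTG gives 2 that overlap, with ACGTG on each strand. Among the members not shown, PDK2 held 3 matches, MPC1 held 2, and LDHB and MPC2 held 0 in the 250 bases, while PDP1 and SLC16A1 were not searched. In longer windows, from 250 bases before to 50 bases after the start, LDHB and MPC2 each held 1 match. The other members searched held as many as in the 250 bases. Over these longer windows at 19060 MANE Select starts, 56.8% held at least 1 match, 29.0% at least 2 and 1.15% at least 6. The median GC content of these windows was 63.7%, against 74.3% to 82.7% for the genes shown, so the shares are not for promoters of like GC content. A match describes these letters and not a bound site.

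All 10 pluripotency markers examined, POU5F1, NANOG and SOX2 among them, were above 1 CPM (the gene's count per standard library size after scaling with edgeR's TMM factors) in every library, with a summed level from 6451 to 7784 CPM. UBQLN1 was at 221 and 197 CPM in the WT libraries, at 42.3 and 43.5 CPM in KO at 20% O2, and at 47.7 to 62.4 CPM in the treated KO libraries. Library totals ran from 31236968 to 41639350 counts. The NAC libraries stood apart. Their replicates differed by a median of 0.225 on the log2 scale over the tested genes, against 0.127 to 0.155 in the other groups. NAC replicate 1 also had 947 CPM over 10 mesenchymal markers, all 10 above 1 CPM, whereas the other 7 libraries had 515 to 629 CPM with 5 of 10 above 1 CPM and 2 to 4 at 0 counts. THY1 was the largest part of these sums, at 476 CPM in NAC replicate 1 and 332 to 415 CPM in the other 7. DCN had 1809 counts in NAC replicate 1 and 0 in the other 7, and COL3A1 had 1114 counts against 0 to 8. With NAC, 3 of the 10 pluripotency markers were higher than in untreated KO (DPPA4, ZFP42 and TDGF1) and 3 lower (DNMT3B, L1TD1 and NANOG). Among them DNMT3B was at 1136 and 1418 CPM against 2553 and 2455 CPM. The neural progenitor marker NES was at 126 and 129 CPM with NAC against 451 and 422 CPM. NES was also lower than in untreated KO in WT (266 and 226 CPM) and at 5% O2 (212 and 287 CPM). The part of these markers in any result below was not tested, and in bulk RNA fewer cells of a type and less RNA per cell cannot be told apart.

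**Figure D1:**
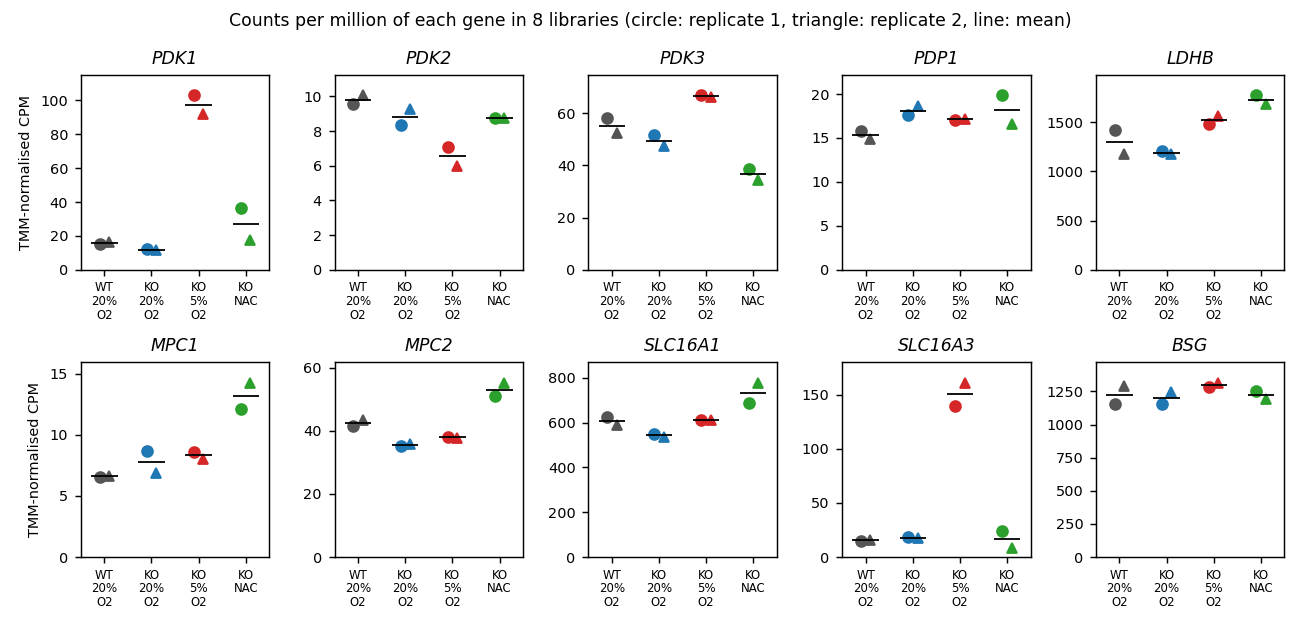
CPM (y axis, linear, from 0) of the 10 genes in each of the 8 libraries by group (x axis), with a circle for replicate 1, a triangle for replicate 2 and a line for the mean of the 2. PDK1 and SLC16A3 stand highest at 5% O2, MPC1, MPC2, LDHB and SLC16A1 stand highest with NAC, and the NAC replicates of PDK1 and SLC16A3 lie far apart.

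PDK1 (chr2:172555373-172608669, plus strand, gene spans here and below from GENCODE on hg38), the kinase best known from the response to low oxygen, was at 15.4 and 16.6 CPM in WT and at 12.3 and 11.5 CPM in KO at 20% O2. At 5% O2 it reached 103 and 91.8 CPM, and with NAC 36.6 and 17.3 CPM. Every library at 5% O2 was above every other library, and both NAC libraries were above both untreated KO libraries, although NAC replicate 2 was near the WT level. The log2 fold change was 3.04 at 5% O2 (SE 0.26, n = 2 per group, adjusted p = 0.000143). Adjusted p-values here are by Benjamini-Hochberg over 15916 genes, from the quasi-likelihood test of edgeR unless another fit is named. The log2 fold change of PDK1 with NAC was 1.19 (SE 0.25, adjusted p = 0.00232). Against the mean of untreated KO, NAC replicate 1 was 3.09-fold and NAC replicate 2 was 1.46-fold higher. Fitted without NAC replicate 1, the log2 fold change with NAC was 0.54 (adjusted p = 0.00393), and without NAC replicate 2 it was 1.63.

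PDK2 (chr17:50094737-50112152, plus strand), a kinase expressed in most tissues, was measured at low counts, from 193 to 388 per library. It was at 9.56 and 10.1 CPM in WT, 8.37 and 9.25 CPM in KO at 20% O2, 7.09 and 6.01 CPM at 5% O2, and 8.74 and 8.75 CPM with NAC. Both libraries at 5% O2 were below the other 6, but the log2 fold change of -0.43 (95% interval -0.79 to -0.06) did not pass the adjusted test (adjusted p = 0.138). In the GENCODE annotation 38.6% of the exon bases of PDK2 overlap SAMD14 on the opposite strand, and the counting did not use strand, so reads there cannot be assigned to either gene.

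PDK3 (chrX:24465244-24550466, plus strand), an X-linked kinase, moved in opposite directions under the treatments. It was at 58.1 and 52.5 CPM in WT, 51.6 and 47.3 CPM in KO at 20% O2, 66.9 and 66.2 CPM at 5% O2, and 38.6 and 34.6 CPM with NAC. The libraries at 5% O2 were the highest of the 8 and those with NAC the lowest, with no overlap with untreated KO on either side. The log2 fold change was 0.43 at 5% O2 (SE 0.10, adjusted p = 0.0297) and -0.43 with NAC (SE 0.10, adjusted p = 0.00457). Set directly against each other, PDK3 was 1.82-fold higher at 5% O2 than with NAC (log2 fold change 0.86, SE 0.10, adjusted p = 0.000389). The call at 5% O2 was lost when any of the 4 libraries was left out, with the log2 fold change at 0.37 to 0.49 in those fits. The call with NAC was lost without KO replicate 1 at 20% O2 or with the trend removed (adjusted p = 0.0544).

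PDP1 (chr8:93857807-93926068, plus strand), the phosphatase subunit that opposes the kinases, varied little. It ranged from 14.9 CPM in a WT library to 19.8 CPM in NAC replicate 1, and its log2 fold changes were 0.23 in KO against WT, -0.08 at 5% O2 and 0.01 with NAC, none of which passed the test. The 95% interval at 5% O2, from -0.37 to 0.21, lies below the estimate for PDK3 of 0.43. The interval of PDK3, 0.21 to 0.65, meets it at the edge, and these genes were not tested against each other. PDK4, the remaining kinase, was at 0 to 12 counts per library and was not tested.

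Since the kinases act on the same complex, their make-up within a library was also described, as CPM per kb of transcript so that genes of different length can be compared. The outcome depended on the length used. With the MANE Select transcript (14072 bases for PDK1, 3364 for PDK2 and 1741 for PDK3), PDK3 held 89.1 ± 1.00% (SD, n = 2) of the PDK1 to PDK3 total in untreated KO and 81.2 ± 1.24% at 5% O2, while PDK1 went from 2.65 ± 0.00566% to 14.7 ± 0.863%. With all annotated exons (14845, 5471 and 17456 bases), a length added after the transcript lengths were seen, PDK1 held 15.2 ± 0.448% in untreated KO and 56.7 ± 1.17% at 5% O2, and PDK3 went from 54.0 ± 2.30% to 33.0 ± 1.75%. PDK1 thus had a larger share at 5% O2 with either length, but which kinase was the most abundant there differed between them. In WT, PDK1 held 3.19 ± 0.359% by the MANE Select length, and in the NAC libraries 9.50% and 5.20%.

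MPC1 (chr6:166364919-166383013, minus strand) and MPC2 (chr1:167916675-167937072, minus strand), whose products together form the mitochondrial pyruvate carrier, passed the test with NAC but not at 5% O2. MPC1 was at 6.56 and 6.64 CPM in WT, 8.70 and 6.87 CPM in KO at 20% O2, 8.61 and 8.04 CPM at 5% O2, and 12.1 and 14.3 CPM with NAC. MPC2 was at 41.6 and 43.4 CPM in WT, 35.2 and 35.8 CPM in KO at 20% O2, 38.0 and 37.8 CPM at 5% O2, and 50.9 and 55.2 CPM with NAC. For both genes the NAC libraries were above all 6 others. The log2 fold changes with NAC were 0.76 for MPC1 (SE 0.18, adjusted p = 0.00407) and 0.58 for MPC2 (SE 0.10, adjusted p = 0.000435). At 5% O2 both were at 0.10, with 95% intervals of -0.29 to 0.48 and -0.11 to 0.30. Both calls with NAC were lost when a smooth trend with transcript length and GC content was taken out (0.08, adjusted p = 0.793, and 0.04, adjusted p = 0.771). MPC1 also lost its call with NAC without KO replicate 2 at 20% O2 (adjusted p = 0.0580), and 21.8% of MPC2's exon bases overlap DCAF6 on the opposite strand.

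LDHB (chr12:21635342-21757857, minus strand), the subunit that predominates in lactate-consuming tissues such as heart, was among the most abundant of these mRNAs. It was at 1423 and 1181 CPM in WT, 1205 and 1182 CPM in KO at 20% O2, 1482 and 1566 CPM at 5% O2, and 1774 and 1688 CPM with NAC. Libraries of either treatment were above both untreated KO libraries, by a log2 fold change of 0.35 at 5% O2 (SE 0.09, adjusted p = 0.0391) and 0.54 with NAC (SE 0.09, adjusted p = 0.000559). The call at 5% O2 was lost without any of the 4 libraries (adjusted p from 0.170 to 0.247), and both calls were lost with the length and GC trend removed (0.14 and 0.08). Of the 31-base words in the LDHB transcript 11.9% also occur elsewhere in the genome, so some of its reads may have been left out as multi-mapping, and 33.4% of its exon bases overlap an unnamed gene on the same strand.

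LDHA, the partner subunit and not a member, moved far more at low oxygen: it was at 665 and 634 CPM in untreated KO and at 2736 and 2571 CPM at 5% O2 (log2 fold change 2.03, SE 0.12, adjusted p = 1.09e-05). Within a library, LDHB went from 76.0 ± 0.361% (SD, n = 2) of the CPM per kb of both subunits in untreated KO to 49.7 ± 2.06% at 5% O2. With NAC the share was 75.4 ± 3.10% and in WT 77.3 ± 1.47%. By all annotated exons, a length added after these values were seen, it was 78.8% in untreated KO and 53.7% at 5% O2. Of the 31-base words of LDHA 34.4% also occur elsewhere in the genome, more than for LDHB, so the share is uncertain as a level. The log2 ratio of LDHA to LDHB counts, which needs no length or library size, was 1.68 higher at 5% O2 than in untreated KO, with no overlap (exact two-sided permutation p = 0.333, the smallest that 2 against 2 libraries can give). With NAC it was 0.04 higher and the libraries overlapped (exact permutation p = 1).

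SLC16A1 (chr1:112911847-112957593, minus strand) was the more abundant transporter mRNA in every library. It was at 624 and 589 CPM in WT, 550 and 537 CPM in KO at 20% O2, 613 and 613 CPM at 5% O2, and 688 and 778 CPM with NAC. The NAC libraries were above all others, with a log2 fold change of 0.43 (SE 0.08, adjusted p = 0.00125). At 5% O2 the log2 fold change was 0.17 (95% interval -0.01 to 0.35, adjusted p = 0.221), so any rise of SLC16A1 at low oxygen was far below that of its partner.

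SLC16A3 (chr17:82217934-82261129, plus strand), the lactate exporter of glycolytic cells, was at 15.0 and 15.6 CPM in WT and 18.0 and 17.8 CPM in KO at 20% O2. It reached 140 and 161 CPM at 5% O2. With NAC it was at 23.9 and 8.72 CPM, that is, 914 and 261 counts. Both libraries at 5% O2 were above every other library, and the NAC libraries lay on either side of untreated KO. The log2 fold change was 3.07 at 5% O2 (SE 0.31, adjusted p = 0.000452) and -0.12 with NAC (SE 0.31, adjusted p = 0.777). A single NAC library decided the latter: it was -1.04 without NAC replicate 1 (adjusted p = 4.92e-05) and 0.41 without NAC replicate 2 (adjusted p = 0.0106), fits in which the lone library is assumed to vary like the other groups. NAC replicate 1 is the library with the higher mesenchymal markers.

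The balance of the 2 transporters shifted accordingly. SLC16A1 exceeded SLC16A3 per kb by a factor of 28.8 and 26.1 in the WT libraries, 21.1 and 20.9 in untreated KO, and 3.04 and 2.64 at 5% O2. With NAC the factor was 19.96 and 61.8. By all annotated exons, likewise added after these values were seen, the mean factor was 44.2 in untreated KO and 5.96 at 5% O2, so its size depends on the length while the drop does not. The log2 ratio of SLC16A3 to SLC16A1 counts was 2.89 higher at 5% O2 (7.43-fold, no overlap) and 0.74 lower with NAC, with overlap, and the corresponding ratio of PDK1 to PDK2 was 3.47 higher at 5% O2 (11.1-fold, no overlap) and 1.10 higher with NAC (no overlap). The exact permutation p was 0.333, the smallest possible, for those without overlap and 1 for the other.

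**Figure D2:**
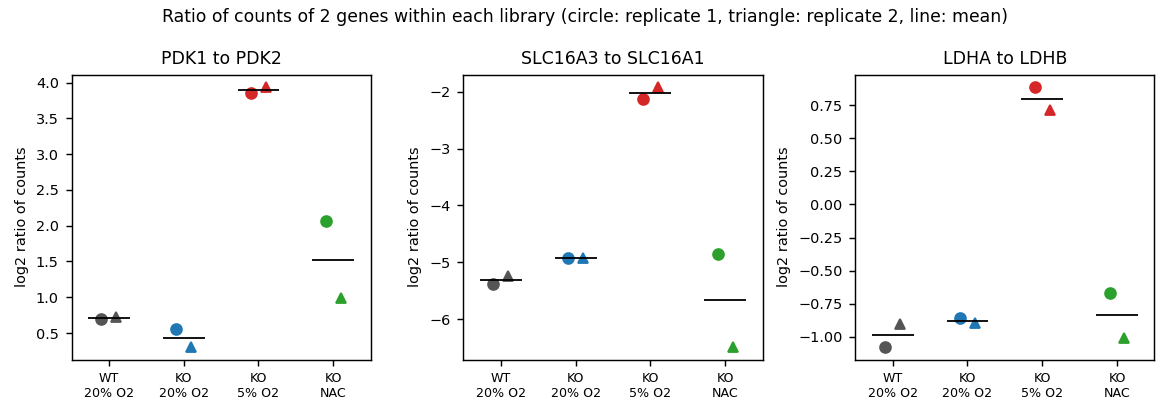
Log2 ratio of the counts of 2 genes within each library (y axis) by group (x axis), with a circle for replicate 1, a triangle for replicate 2 and a line for the mean of the 2. All 3 ratios are highest at 5% O2, and the NAC replicates differ most for SLC16A3 to SLC16A1.

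BSG (chr19:571277-583494, plus strand), the chaperone of both transporters, was high and even across libraries, from 1152 CPM in a KO library at 20% O2 to 1315 CPM at 5% O2. Its log2 fold changes were -0.03 in KO against WT, 0.12 at 5% O2 (95% interval -0.06 to 0.30) and 0.03 with NAC (95% interval -0.14 to 0.21). None passed the test, so BSG mRNA was at 1.09-fold where SLC16A3 mRNA was at 8.39-fold.

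By CPM per kb of the MANE Select transcript, the members ranked in untreated KO as LDHB (916), BSG (615), SLC16A1 (145), PDK3 (28.4), MPC2 (15.97), MPC1 (8.61), SLC16A3 (6.89), PDP1 (4.29), PDK2 (2.62) and PDK1 (0.844). Neighbours in this order did not overlap between libraries, with MPC1 and SLC16A3 the closest (7.60 to 9.62 against 6.84 to 6.94). At 5% O2, SLC16A3 (57.9) stood above PDK3 (38.2), and PDK1 (6.92) stood above PDP1 (4.06) and PDK2 (1.95). With NAC, SLC16A3 overlapped PDP1 and PDK1 overlapped PDK2. By all annotated exons PDK3 was at 2.83 CPM per kb in untreated KO, below MPC1 (5.06) and PDP1 (3.23), and SLC16A3 was at 1.94, also below PDP1, so the places of both in the order depend on the length.

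Between genotypes at 20% O2, 0 of 10 members were called higher and 0 lower by edgeR at an adjusted p under 0.05. Over all tested genes, 1.34% were called higher and 0.622% lower. DESeq2 called 0 members as well, and 545 of all genes higher and 315 lower. In edgeR 1 member, MPC2, had an unadjusted p under 0.05 (log2 fold change -0.26, 95% interval -0.47 to -0.05, adjusted p = 0.188). PDK1 had the largest estimate, -0.44 (95% interval -0.99 to 0.12, adjusted p = 0.403), with both KO libraries below both WT libraries. The interval rests on a spread estimated over all 4 groups. Log2 of replicate 1 over replicate 2 for PDK1 was -0.11 in WT, 0.10 in untreated KO and 1.08 with NAC. Fitted on only the libraries compared, edgeR gave -0.43 (adjusted p = 0.0563). Without the filter on low counts PDK1 was called lower (log2 fold change -0.43, adjusted p = 0.0222). That fit called 782 of all genes higher and 470 lower, against 213 and 99 in the main fit. SLC16A3 (0.22), MPC1 (0.24) and PDP1 (0.23) were the members with a positive estimate. The median over the members was -0.14, against -0.0024 over all tested genes.

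At 5% O2 against 20% O2 in KO, 4 of 10 members were called higher and 0 lower, against 3.68% and 4.13% of all tested genes. At an unadjusted p under 0.05, 1 member, PDK2, was lower. DESeq2 called 4 members higher and 0 lower, and 1081 of all genes higher and 1063 lower. By the study's own kind of criterion, an absolute log2 fold change over 1 with an unadjusted p under 0.05, 2 members (PDK1 and SLC16A3) were higher, against 0.811% of all tested genes. The median over the members was 0.15, against -0.00025 over all tested genes.

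With NAC against untreated KO, 5 of 10 members were called higher and 1 lower, against 23.8% and 20.8% of all tested genes. Against the mean of untreated KO, NAC replicates 1 and 2 were at 3.09-fold and 1.46-fold for PDK1. For SLC16A3 they were at 1.33-fold and 0.49-fold. By the criterion with a log2 fold change over 1, 1 member (PDK1) was higher, against 3.63% of all tested genes. The median over the members was 0.23, against 0.023 over all tested genes.

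**Figure D3:**
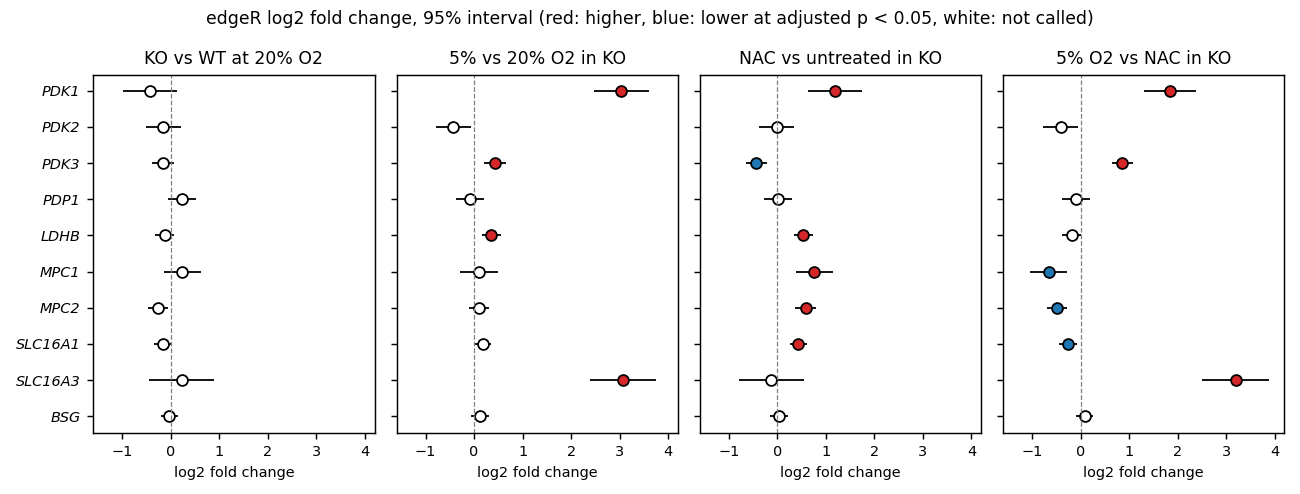
Log2 fold change from edgeR (x axis) of each gene (y axis) in 4 comparisons, with points for the estimates and bars for the 95% intervals, red for genes called higher, blue for genes called lower and white for those not called. PDK1 and SLC16A3 lie near 3 at 5% O2, and PDK3 lies on opposite sides of 0 under the treatments.

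Both treatments were set against the same untreated KO libraries, so their values for the members are given side by side and the treatments were also compared directly. The labels give no exposure time, and the study's text names about a day for the sequenced cells at 5% O2 but many passages in its scheme of both treatments, so treatment and exposure time cannot be told apart in this comparison. PDK1 was at 3.04 and 1.19 on the log2 scale at 5% O2 and with NAC, SLC16A3 at 3.07 and -0.12, and MPC1 at 0.10 and 0.76. In the direct comparison 3 members were higher at 5% O2 (PDK1, PDK3 and SLC16A3) and 3 were lower (MPC1, MPC2 and SLC16A1), against 13.6% higher and 15.5% lower of all tested genes. SLC16A3 was 9.14-fold higher at 5% O2 than with NAC (log2 fold change 3.19, SE 0.32, adjusted p = 0.00022) and PDK1 was 3.59-fold higher (1.85, SE 0.25, adjusted p = 0.000575). MPC1 was lower by -0.66 (SE 0.18, adjusted p = 0.0154), MPC2 by -0.48 (SE 0.10, adjusted p = 0.0035) and SLC16A1 by -0.26 (SE 0.08, adjusted p = 0.0359). The SLC16A1 call was lost under RLE or upper quartile normalization (adjusted p = 0.0610 and 0.0576), without either library at 5% O2 (adjusted p = 0.128 and 0.164) and without NAC replicate 2 (adjusted p = 0.169), and the MPC1 call was lost without either library at 5% O2 (adjusted p = 0.0584 and 0.123).

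**Figure D4:**
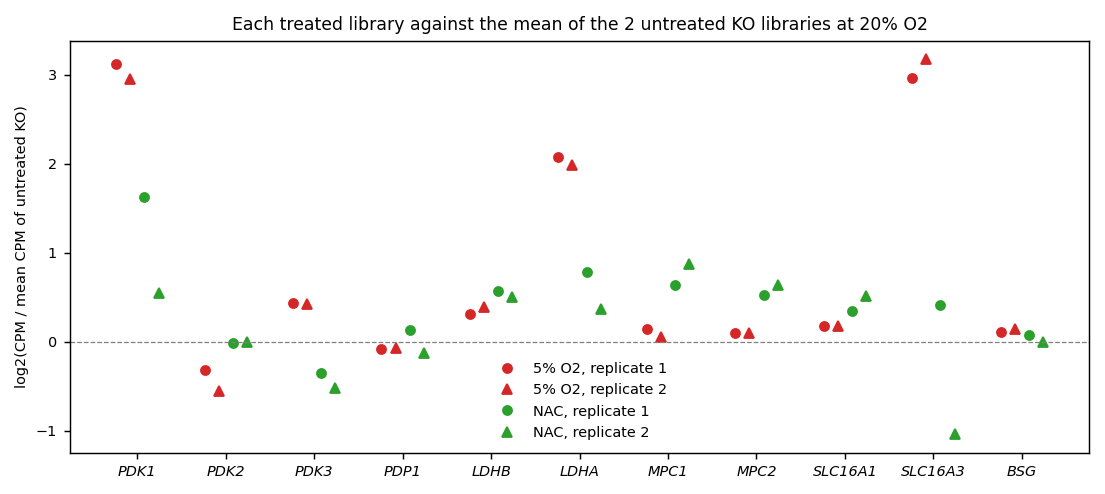
Log2 of the CPM in each treated KO library over the mean CPM of the 2 untreated KO libraries (y axis) for the 10 genes and LDHA (x axis), in red for 5% O2 and green for NAC, with circles for replicate 1 and triangles for replicate 2. The replicates at 5% O2 lie close together for each gene, whereas the NAC replicates of SLC16A3 are at 0.41 and -1.04 and those of PDK1 at 1.63 and 0.55.

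The fold changes of all genes were correlated with the GC content and the length of each gene's longest GENCODE transcript. Spearman correlations were taken across 14828 genes, which are not independent replicates. With GC content they were -0.332 at 5% O2, -0.492 with NAC and 0.15 between genotypes. With length they were -0.23, -0.226 and 0.213 in the same order. Among the members that rose with NAC, GC content of the MANE Select transcript was 39.5% to 43.7%, while PDP1 was at 40.0%, PDK3 at 45.3%, and PDK2, BSG and SLC16A3 at 59.7% to 64.7%. When a smooth trend on length and GC content was removed from each library, PDK1 kept its calls (3.15 at 5% O2 and 1.33 with NAC) and so did SLC16A3 (3.35) and PDK3 (0.56) at 5% O2 and SLC16A1 (0.25, adjusted p = 0.0288) with NAC. With NAC, MPC1, MPC2, LDHB (adjusted p = 0.552) and PDK3 (-0.25) lost their calls, while BSG was called higher at 0.34 (adjusted p = 0.00418). At 5% O2 LDHB lost its call (0.14, adjusted p = 0.468). In the direct comparison MPC1, MPC2 and SLC16A1 lost theirs, and PDK2 was called lower (-0.64, adjusted p = 0.0243). Whether GC content or length itself produced the NAC values was not tested.

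**Figure D5:**
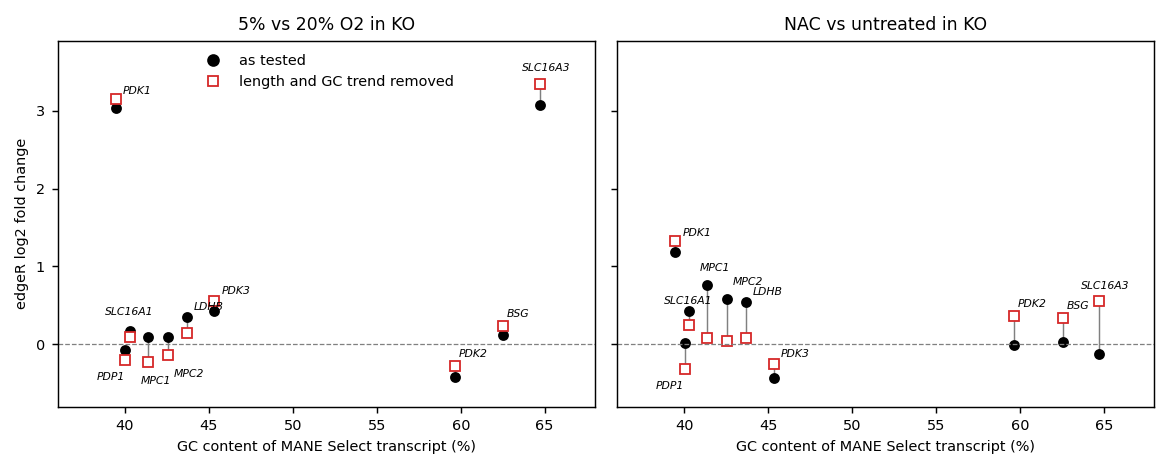
Log2 fold change (y axis) of the 10 genes against the GC content of their MANE Select transcripts in percent (x axis), at 5% O2 (left) and with NAC (right), as tested (filled circles) and after a trend on length and GC content was removed (open squares). With NAC, MPC1, MPC2 and LDHB move from 0.54 to 0.76 down to 0.04 to 0.08, while PDK1 stays above 1.

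Of 32 other genes of pyruvate and lactate metabolism, 24 were tested. At 5% O2, 3 were higher by edgeR and 0 were lower: LDHA, PKM (the pyruvate kinase that makes pyruvate, log2 fold change 1.22, adjusted p = 0.00329) and PDHB (a subunit of the pyruvate dehydrogenase complex, 0.35, adjusted p = 0.0480). Over all tested genes the shares were 3.68% higher and 4.13% lower. DESeq2 tested 18 of the pathway genes and called 4 higher and 1 lower. Of all 15916 genes that entered that fit, it called 1081 higher and 1063 lower. PDHB lost its call under RLE normalization or with the trend removed, as it did without any of the 4 libraries. PKM lost its call without KO replicate 1 at 20% O2 and without KO replicate 1 at 5% O2. Of the phosphatase genes, PDP2 was at -0.32 (adjusted p = 0.101) and the regulatory subunit PDPR at -0.07, and neither passed the test.

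With NAC, 8 of the 24 were higher and 2 were lower, where 23.8% of all tested genes were higher and 20.8% lower. All tested subunit genes of the complex but PDHA1 were among the higher ones (PDHA2 was at 0 counts in every library and was not tested): DLD, the shared dihydrolipoamide dehydrogenase, at 0.71, PDHX at 0.54, PDHB at 0.52 and DLAT at 0.32. The others were PKM (0.75), LIAS (0.60), which makes the lipoyl cofactor, LDHA (0.59) and the malic enzyme ME2 (0.50), and PC (-0.53), the pyruvate carboxylase, and GPT2 (-0.46), an alanine aminotransferase, were lower. After removal of the length and GC trend, 4 were higher (PKM, ME2, PDHB and PCK2) and 0 lower. In that fit 2395 of all 15916 tested genes were higher and 2122 lower, and DLD was at 0.09 and LDHA at 0.01. Without KO replicate 2 at 20% O2, DLAT and PC lost their calls. Between genotypes, LDHD, the mitochondrial D-lactate dehydrogenase, was lower and 0 of the 24 were higher: it was at 6.53 and 6.09 CPM in WT and 1.98 and 1.21 CPM in KO (log2 fold change -1.98, SE 0.35, adjusted p = 0.014). The call of LDHD was lost when any of these 4 libraries was left out, in fits where calls over all tested genes also fell.

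By the root mean square difference of log2 CPM, centred on each gene's own mean, over the 8 libraries, the genes most like PDK1 among 12372 compared were BNIP3 (0.22), RIMKLA (0.29), LDHA (0.40), SLC2A1 (0.41), the glucose transporter GLUT1, and PPP1R3C (0.42). Those most like SLC16A3 were RIMKLA (0.47), BHLHE40 (0.53), BNIP3 (0.53), PDK1 (0.60) and PFKFB3 (0.62). BNIP3, a mitophagy receptor, was at a mean of 73.6 CPM in untreated KO and 425 CPM at 5% O2, and at 151 and 76.8 CPM in the NAC libraries. The measure describes likeness over 8 libraries of 4 groups, in which the 2 libraries at 5% O2 carry most of the variation.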

How the data were processed

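WA26 hESC libraries were made with a TruSeq kit. After trimming, the authors used HISAT2 on hg38 and featureCounts with its defaults, which ignore strand and omit multi-mapping reads. The deposited values are raw counts, without normalization. The annotation used is not given in the sources used here. Of 12 samples in the labels, 4 were not analysed here, all of them treated WT cells.

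Groups came from the labels. Low genes were removed by filterByExpr (minimum count 10), libraries were scaled by TMM, and the test was that of edgeR 4.0.16 (quasi-likelihood, R 4.3.3, 1 term per group over 8 libraries, 4 residual degrees of freedom), with Benjamini-Hochberg adjustment over 15916 genes and calls at an adjusted p under 0.05. SE is the absolute log2 fold change over the square root of F. The biological coefficient of variation was 13.7%, and 2 libraries per group limit the precision. Replicates differed by more than sampling noise (chi-square per degree of freedom 9.53 to 30.7). The code was checked on simulated counts.

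The named genes are the members, a list of pathway genes and the 5 genes with profiles most like PDK1 and SLC16A3. Members, lists and tests were chosen with earlier results of these data known. Positions, lengths and exon overlaps are from GENCODE on hg38, which may differ from the authors' annotation. Promoter sequence was read from hg38 at MANE Select starts. Of tested genes, 93.2% had a known length and GC content, and their trend was smoothed with mgcv 1.9.3. For the trend and the correlations these were taken from each gene's longest GENCODE transcript, which can differ from the MANE Select transcript. Alternatives were scaling by RLE or upper quartile, DESeq2 1.42.0, no filter, at least 10 counts in every library, a replicate block, the libraries compared alone, the removed trend, a call that also needs a log2 fold change over 1, and leaving out each library. The length of all annotated exons and the alternatives for the pathway list were added after seeing the data.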

Additional observations from a re-analysis of the deposited data

How the results depend on the processing

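Replicate numbers did not pair the libraries: correlations of same-numbered deviations between groups ran from -0.0226 to 0.0816. With a replicate block, members called stayed at 0 between genotypes, 4 at 5% O2, 6 with NAC and 6 between the treatments, and no call of a member changed. In that fit, 257 of all 15916 tested genes were higher and 109 lower between genotypes, and 676 and 741 at 5% O2. With NAC these numbers were 3806 and 3367, and between the treatments 2267 and 2529. Without the filter on low counts 1 member was called between genotypes, where 782 of all 21141 genes were higher and 470 lower. A call that needed a log2 fold change beyond 1 in size and an unadjusted p under 0.05 leaves out small changes by construction. By it, 2 members were higher at 5% O2 and 1 with NAC, against 0.811% and 3.63% of all tested genes. Leaving out each library in turn kept the log2 fold change of PDK1 at 5% O2 between 2.95 and 3.12. With the length and GC trend removed, 3 members were called higher with NAC, where 2395 of all 15916 tested genes were higher and 2122 lower. The NAC change in the log2 ratio of SLC16A3 to SLC16A1 then became 0.090 and that of LDHA to LDHB -0.085. Leaving out each library instead gave -1.56 to 0.074 and -0.13 to 0.21 for these ratios.

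Most reversals were of values near 0 that did not pass the test. With the trend removed, LDHB was at 0.0072 between genotypes, MPC1 at -0.23 and MPC2 at -0.14 at 5% O2, PDK2 at 0.37, PDP1 at -0.32 and SLC16A3 at 0.55 with NAC, and PDP1 at 0.11, LDHB at 0.059 and BSG at -0.10 between the treatments. PDP1 with NAC was also at -0.019 under RLE normalization, -0.0069 under upper quartile normalization, -0.0021 with at least 10 counts in every library, -0.013 with only the libraries compared and -0.018 in DESeq2. Leaving out each library reversed LDHB between genotypes (-0.25 to 0.015), BSG between genotypes (-0.10 to 0.054), MPC1 at 5% O2 (-0.063 to 0.28), PDK2 (-0.083 to 0.061), PDP1 (-0.13 to 0.13), SLC16A3 (-1.04 to 0.41) and BSG (-0.021 to 0.088) with NAC, and PDP1 between the treatments (-0.21 to 0.053). DESeq2 changed no call of a member. Outside leaving out a library, 292 of 320 values of single members kept their direction and their side of the threshold, and 19 of the 28 others came with the trend removed. The cause of these changes was not tested.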
